A study of Mus musculus with 30 samples.

Results

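The genes described here write, maintain and remove methyl groups on DNA: the methyltransferases Dnmt1, Dnmt3a and Dnmt3b, their cofactor Dnmt3l, the ubiquitin ligases Uhrf1 and Uhrf2, and the dioxygenases Tet1, Tet2 and Tet3. They were chosen by symbol, through the Ensembl identifiers of the count table with the version suffix removed, and all 9 were found among 57186 identifiers. RNA of 2 mouse lines was sequenced after 0, 1, 2, 5 and 48 h with cycloheximide (0.1 µg/mL), a blocker of translation elongation, with 3 replicates (A, B and C) per line and time, 30 libraries in 10 groups. Fibroblasts of the NIH/3T3 line grew in DMEM with serum. Embryonic stem cells of the CGR8 line grew in N2B27 with 2i and LIF. Every group, the 0 h controls included, carried a knock-in labelled SLT at ROSA26, and the labels say neither how many clones were used nor whether the 0 h cells, whose labels carry the dose too, received solvent. Nothing in the labels says that the replicates came from separate cultures, so the p-values measure the spread between these samples, which may be technical.

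In mammals, DNA methylation is found mostly on the cytosine of CpG dinucleotides. After replication, UHRF1 binds hemimethylated CpG sites and brings in DNMT1, which copies the mark to the new strand. DNMT3A and DNMT3B place new methyl groups, with the catalytically inactive DNMT3L as a cofactor in germ cells and early embryos. TET enzymes oxidise 5-methylcytosine, which leads to its loss by dilution or by base excision repair. Stem cells grown in 2i and LIF are known for low DNA methylation. Methylation itself was not measured here.

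The bases before the transcription starts are shown for the genes on which the results turn. RefSeq promoter windows (GRCm38.p6, 250 bases before to 50 after a start) were found for 9 of 9 genes, 16 windows in all. They were searched on both strands for TTTCCCGC, TTTGGCGC, TTTCGCGC and TTTGCCGC, forms of the site bound by E2F factors, which drive S-phase genes. Of 32851 windows in the table, 2.26% held a match, and among the 9 genes matches lay in 1 window of Uhrf1 (at -185 from the start) and 1 of Dnmt1, which held 2, one of them beginning 219 bases before the start and the other past it. Of the 250 bases before that Dnmt1 start, 166 are annotated exon bases of Dnmt1, so both positions hold for this start alone. No matches overlapped one another. For Uhrf1 the 250 bases before that start are printed with the match in capitals, and for Dnmt1 only 30 bases around the match before its start, where TTTCGCGC lies on the reverse strand. For Dnmt3b and Dnmt3l, whose levels differed widely between the lines, capitals mark CpG. The 250 bases of Dnmt3b held 21 CpG and those of the Dnmt3l start shown held 4, beside a median of 6 over all windows (quartiles 2 and 16). A match of letters is a description of the sequence only.
Uhrf1, chr17:56304063-56304312, plus strand: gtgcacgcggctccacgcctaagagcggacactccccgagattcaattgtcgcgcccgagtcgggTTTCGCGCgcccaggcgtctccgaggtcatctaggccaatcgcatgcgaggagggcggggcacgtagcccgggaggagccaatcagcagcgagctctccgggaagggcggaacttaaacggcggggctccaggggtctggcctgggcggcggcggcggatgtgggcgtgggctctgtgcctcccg
Dnmt1, chr9:20952824-20952853, minus strand: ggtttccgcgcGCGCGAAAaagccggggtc
Dnmt3b, chr2:153649199-153649448, plus strand: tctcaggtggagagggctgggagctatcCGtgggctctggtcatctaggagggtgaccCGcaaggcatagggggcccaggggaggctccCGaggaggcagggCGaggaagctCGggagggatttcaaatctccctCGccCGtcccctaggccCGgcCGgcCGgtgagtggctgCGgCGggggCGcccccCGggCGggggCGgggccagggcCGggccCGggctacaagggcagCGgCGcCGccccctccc
Dnmt3l, chr10:78049592-78049841, plus strand: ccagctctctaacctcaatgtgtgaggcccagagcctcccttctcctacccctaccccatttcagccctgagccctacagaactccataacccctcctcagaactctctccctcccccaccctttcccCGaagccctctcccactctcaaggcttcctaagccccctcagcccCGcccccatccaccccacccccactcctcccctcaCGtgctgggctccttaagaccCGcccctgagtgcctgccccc

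Libraries held 18.2 M to 30.5 M counts. Most marker genes, but not all, followed the labels. The stem cell factor Pou5f1 lay at 548 to 1296 CPM (reads of a gene per 1 M counted reads, after scaling) in CGR8 and at most at 0.0929 CPM in NIH/3T3. The collagen gene Col1a1 lay at 1595 to 4756 CPM in NIH/3T3 and at most at 0.726 CPM in CGR8. At 0 h, 4 of 11 naive stem cell markers and 8 of 10 fibroblast markers averaged at least 1 CPM in NIH/3T3, and 11 and 4 in CGR8. Klf4, a naive marker, lay at 183 to 398 CPM in NIH/3T3 and 135 to 396 CPM in CGR8, and Sox2 at 20.4 to 30.7 and 247 to 448 CPM. Of the fibroblast markers, Thy1 (at most 0.0929 CPM) and Postn (at most 0.959 CPM) were low or at 0 in NIH/3T3. Thy1 lay higher in CGR8, at 1.48 to 4.51 CPM. Fn1 lay at 421 to 1149 CPM in CGR8 and 882 to 1976 CPM in NIH/3T3, and Vim at 269 to 660 and 4039 to 6017 CPM. Libraries differed in the balance of long and short transcripts, which bears on Dnmt3a and the Tet genes, whose longest annotated transcripts run from 9179 to 14369 bases. The measure used was the median log2 deviation from the 0 h mean of genes with transcripts of at least 8 kb, minus that of genes under 2 kb. In NIH/3T3 it ran from -0.19 to 0.14 at 0 h, from -0.67 to -0.38 at 2 h, from -0.45 to -0.24 at 5 h and from 0.71 to 0.78 at 48 h. At 1 h it was 0.25 and 0.40 in A and B but -0.64 in C, which stood apart. In CGR8 it ran from -0.30 to 0.15 at 0 h, from -0.96 to -0.17 at 2 h, from -1.57 (A) to -0.51 at 5 h and from 0.06 to 0.38 at 48 h. It therefore moved with time as well as between replicates. Values from a fit with this trend removed in each library, an alternative added after the data were seen, are given beside the main results where they differ in call. What the trend contributes to any of the changes was not tested.

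**Figure D1:**
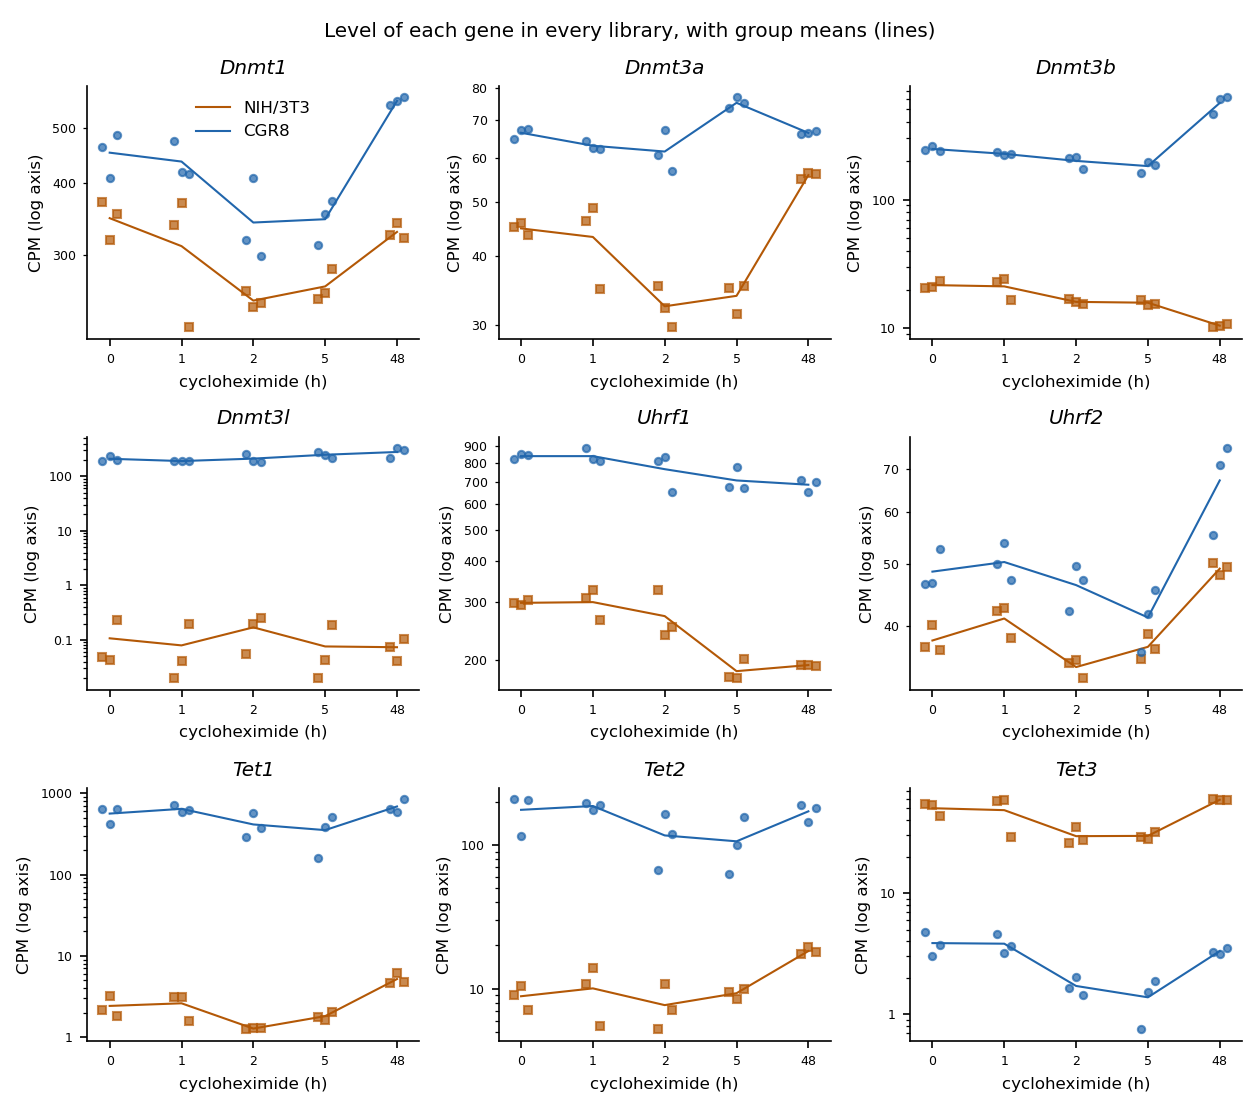
CPM of each of the 9 genes (log axis, a scale of its own in each panel) against hours of cycloheximide, with 1 point per library (squares NIH/3T3, circles CGR8) and lines through the group means of 3 libraries. Libraries with 0 counts are drawn at 0.02 CPM. The NIH/3T3 points of Dnmt3l lie at or below 0.257 CPM, and Tet3 is the gene whose NIH/3T3 points lie above those of CGR8.

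Before treatment the levels of these genes, and their order, differed between the 2 lines. Compared per kilobase of merged exons, Uhrf1 stood first in both lines, at 70.2 CPM per kb in NIH/3T3 and 197 CPM per kb in CGR8 (means of 3 libraries at 0 h). In NIH/3T3 it was followed by Dnmt1 at 47.1 CPM per kb, while Uhrf2 (4.42), Dnmt3b (4.25), Tet3 (3.01) and Dnmt3a (2.69) lay far lower, and Tet2 (0.525), Tet1 (0.156) and Dnmt3l (0.0359) lowest. In CGR8 the order after Uhrf1 was Dnmt3l at 70.3, Dnmt1 at 61.3, Dnmt3b at 48.4, Tet1 at 36.4 and Tet2 at 10.4 CPM per kb, with Uhrf2 (5.65), Dnmt3a (3.99) and Tet3 (0.232) last. With the longest transcript as the length, Dnmt3a and Tet3 changed places in NIH/3T3, so their order is not settled. Libraries also overlapped between Uhrf2 and Dnmt3b in NIH/3T3 and between Dnmt3l and Dnmt1 in CGR8, on the scale of CPM per kb. All 9 genes were called different between the lines at 0 h, where 79.1% of all genes tested were called (edgeR's quasi-likelihood test, Benjamini-Hochberg adjusted p under 0.05), 8 higher in CGR8 (42.8% of all genes) and 1 lower (36.3%).

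Tet1, an oxidase abundant in embryonic stem cells, lay at 638, 415 and 637 CPM in CGR8 (A, B and C) and at 2.17, 3.24 and 1.84 CPM in NIH/3T3, a log2 difference of 7.83 (SE 0.37). Tet2 differed by 4.27 (SE 0.34), with 207, 116 and 204 CPM against 9.03, 10.5 and 7.10 CPM. Tet3 went the other way, with 4.81, 3.03 and 3.77 CPM in CGR8 and 54.0, 53.6 and 43.0 CPM in NIH/3T3 (log2 difference -3.73, SE 0.23). Per kilobase, Tet1 thus led the 3 Tet genes in the stem cells and Tet3 in the fibroblasts, with no overlap between the lines for any of the 3 genes. The de novo enzyme Dnmt3b differed by 3.46 (SE 0.13), with 243, 259 and 240 CPM against 20.8, 21.2 and 23.2 CPM. Its cofactor Dnmt3l had 4745 to 5979 counts per CGR8 library and 1, 1 and 7 counts in the NIH/3T3 libraries, too few for a fold change. Dnmt3l shares 67 exon bases with Aire on the opposite strand, and Aire had 9 to 62 counts per CGR8 library. Smaller differences were called for Uhrf1 (1.44, SE 0.11), Dnmt3a (0.52, SE 0.10), Dnmt1 (0.33, SE 0.13) and Uhrf2 (0.31, SE 0.10). The Dnmt1 call was lost without NIH/3T3 0 h library B (edgeR, adjusted p = 0.109) or CGR8 0 h library C (edgeR, adjusted p = 0.0617), and that of Uhrf2 without a filter on low counts (adjusted p = 0.0625).

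After 1 h of cycloheximide, 0 of 8 genes tested were called in NIH/3T3, where 0.732% of all genes were called, and 0 of 9 in CGR8, beside 0.27% of all genes (edgeR). At an unadjusted p under 0.05 the counts were 0 in both lines, and with DESeq2 0 in both, while voom with sample weights called 1 in NIH/3T3 (Uhrf2), where it called 20.7% of all genes. Dnmt3l was left out of the NIH/3T3 tests by the filter on low counts. NIH/3T3 library C at 1 h was the lowest of its group for all 8 genes tested. Among them were Dnmt1 (224 CPM, against 338 and 369), Dnmt3a (34.8 against 46.2 and 48.7) and Tet3 (29.1 against 57.2 and 58.9). Without library C, 0 of the 8 genes were called.

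The maintenance genes fell early in NIH/3T3, with Dnmt1 lower at 2 h and 5 h and Uhrf1 lower from 5 h to 48 h. In these bulk samples, fewer cells of a type and less RNA per cell cannot be told apart. Dnmt1, the copying methyltransferase, stood at 371, 319 and 353 CPM at 0 h, at 259, 243 and 247 CPM at 2 h and at 251, 258 and 284 CPM at 5 h. All 2 h and 5 h libraries lay below all 0 h libraries, with log2 changes of -0.48 (SE 0.13, edgeR, adjusted p = 0.0116) and -0.40 (SE 0.13, adjusted p = 0.0197). At 48 h it stood at 324, 341 and 322 CPM, overlapping 0 h (-0.08, SE 0.13, adjusted p = 0.635), and was higher than at 5 h by 0.32 (SE 0.13, adjusted p = 0.0449). In CGR8, Dnmt1 showed a like course, from 462, 409 and 486 CPM at 0 h to 318, 408 and 299 CPM at 2 h and 312, 353 and 373 CPM at 5 h. The changes were -0.40 at 2 h (SE 0.12, adjusted p = 0.0272) and -0.39 at 5 h (SE 0.12, adjusted p = 0.0128), with library B at 2 h just under the lowest 0 h library. At 48 h the CGR8 libraries reached 549, 558 and 565 CPM, above all those at 0 h, though the change of 0.30 (SE 0.12) did not pass the test (adjusted p = 0.0715, and passed under 4 of 9 other settings), and above those at 5 h by 0.69 (SE 0.12, adjusted p = 0.000158). Several of these Dnmt1 calls were lost when 1 library was left out: in NIH/3T3 at 2 h without 0 h A (adjusted p = 0.0525), at 5 h without 0 h A or C or 5 h A or B (0.0557 to 0.0739), and from 5 h to 48 h without 5 h A or B or any 48 h library (0.0715 to 0.134). In CGR8 they were lost at 2 h without 0 h A or C or 2 h A or C (0.0650 to 0.139), and at 5 h without 0 h C or 5 h A (0.0548 and 0.0663). With the length trend removed, Dnmt1 in NIH/3T3 came to -0.20 at 5 h (adjusted p = 0.0627), -0.29 at 48 h (0.0104) and -0.09 from 5 h to 48 h (0.399). In CGR8 it then came to -0.16 at 2 h (adjusted p = 0.165), 0.05 at 5 h (0.654), 0.23 at 48 h (0.0322) and 0.19 from 5 h to 48 h (0.0588).

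Uhrf1, the reader of hemimethylated CpG, stood at 298, 295 and 304 CPM in NIH/3T3 at 0 h and at 327, 239 and 252 CPM at 2 h, where the groups overlapped (without 2 h library A the change was -0.27, adjusted p = 0.0205). It then lay at 178, 176 and 201 CPM at 5 h and at 194, 194 and 192 CPM at 48 h. All 6 later libraries lay below all 3 at 0 h, with log2 changes of -0.69 (SE 0.11, edgeR, adjusted p = 7.74e-05) and -0.63 (SE 0.11, adjusted p = 0.000165). Both calls held in all 6 fits that left out a library and under all 9 other settings. In CGR8 the same gene stood at 819, 850 and 845 CPM at 0 h, 676, 775 and 669 CPM at 5 h and 710, 650 and 697 CPM at 48 h. Both later groups lay below 0 h without overlap, but the 5 h change of -0.25 (SE 0.10) did not pass (adjusted p = 0.0587; 0.0371 without 5 h library B), and the 48 h change of -0.29 (SE 0.10) passed narrowly (adjusted p = 0.0491) and in 0 of 6 fits that left out a library. The 48 h call was also lost with RLE factors (adjusted p = 0.0727), without a filter on low counts (0.186) and with a replicate block (0.0554), and the 5 h change passed with scaling by library size alone (-0.35, adjusted p = 0.00775). The changes at 5 h differed between the lines by 0.54 (CGR8 minus NIH/3T3, SE 0.15, edgeR, adjusted p = 0.0158), beside a median over all genes of 0.13 in that contrast, or -0.06 with scaling by library size alone. With RLE factors the difference came to 0.45 (adjusted p = 0.0584), and with scaling by library size alone to 0.34 (adjusted p = 0.141). Without NIH/3T3 5 h library B it was 0.49 (adjusted p = 0.0540), without CGR8 5 h library A 0.38 (0.139) and without CGR8 5 h library B 0.29 (0.261).

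Uhrf2, the relative of Uhrf1, moved in the opposite direction at 48 h in both lines. It stood at 37.1, 40.2 and 36.8 CPM at 0 h and at 50.02, 48.0 and 49.3 CPM at 48 h in NIH/3T3, a log2 rise of 0.37 (SE 0.08, edgeR, adjusted p = 0.000935). In CGR8 it went from 46.4, 46.6 and 52.7 CPM to 55.4, 71.0 and 75.4 CPM, a rise of 0.47 (SE 0.12, adjusted p = 0.01). All 48 h libraries lay above all 0 h libraries in each line, although CGR8 library A was close to the highest control, and without 48 h library C the CGR8 change was 0.38 (adjusted p = 0.0646). At 2 h and 5 h Uhrf2 was called in neither line.

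**Figure D2:**
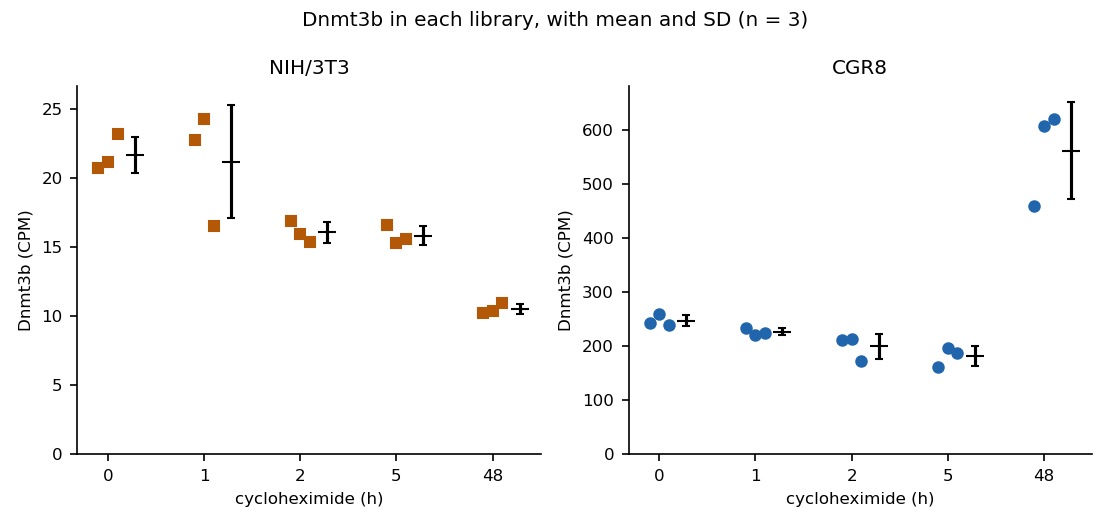
Dnmt3b in CPM against hours of cycloheximide, with 1 point per library and the mean with its SD (n = 3) to the right of each group, on separate axes from 0 for each line. At 48 h the NIH/3T3 libraries lie between 10.3 and 10.9 CPM, below every earlier library, and the CGR8 libraries between 459 and 619 CPM, above every earlier library.

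Among the de novo genes, Dnmt3b fell in both lines at 5 h and then parted, down in the fibroblasts and up in the stem cells at 48 h. In NIH/3T3 it stood at 20.8, 21.2 and 23.2 CPM at 0 h, 16.9, 16.0 and 15.4 CPM at 2 h, 16.6, 15.3 and 15.6 CPM at 5 h and 10.3, 10.4 and 10.9 CPM at 48 h. The log2 changes were -0.43 (SE 0.12, edgeR, adjusted p = 0.0107), -0.46 (SE 0.12, adjusted p = 0.00433) and -1.05 (SE 0.12, adjusted p = 3.23e-06), without overlap with 0 h at any of these times. From 5 h to 48 h it fell further, by 0.59 on the log2 scale (SE 0.12, adjusted p = 0.00048). In CGR8 it stood at 243, 259 and 240 CPM at 0 h, 162, 197 and 187 CPM at 5 h and 459, 607 and 619 CPM at 48 h. It was lower at 5 h (-0.44, SE 0.12, adjusted p = 0.00643) and higher at 48 h (1.18, SE 0.12, adjusted p = 5.03e-06), 2.27-fold over 0 h. The 5 h decrease in CGR8 came to -0.21 with the length trend removed (adjusted p = 0.141). The 2 h call in NIH/3T3 was lost without 0 h library C (adjusted p = 0.0525) or 2 h library C (adjusted p = 0.0509).

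The changes of Dnmt3b at 48 h differed between the lines by a log2 of 2.21 (SE 0.17, edgeR, adjusted p = 4.38e-10), where 21.9% of all genes were called in either direction and 1 of the 9 genes here. This difference ranged from 2.15 to 2.36 over 12 fits that left out a library and from 2.13 to 2.27 over 9 other settings, and was called in all of them. With the length trend removed, the changes were -1.12 in NIH/3T3 and 1.18 in CGR8. The close copy Dnmt3c, whose reads could be mixed with those of Dnmt3b, had at most 2 counts in any library. Primed stem cell markers were looked at beside Dnmt3b in CGR8, because Dnmt3b is known to rise when naive cells move to the primed state. Of 7 tested primed markers (median 0.44), 3 rose at 48 h (12.2% of all genes were called higher), with Lef1 up by 2.05 and Otx2 by 1.43, and 1 fell (Foxd3, -1.06), where 15.6% of all genes were called lower. The summed level of the 8 markers was 79.5 to 90.0 CPM at 0 h, beside 86.5 to 140 CPM at 48 h, and Fgf5 did not exceed 0.403 CPM in any CGR8 library. The 11 naive markers summed to 6506 to 6712 CPM at 0 h and 6955 to 7590 CPM at 48 h, with 4 higher and 2 lower. The part of cell state in the Dnmt3b change was not tested.

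Dnmt3a, the second de novo enzyme, fell early in NIH/3T3 and was at no time called lower than at 0 h in CGR8. In the fibroblasts it went from 45.0, 45.7 and 43.7 CPM at 0 h to 35.4, 32.2 and 29.8 CPM at 2 h and 35.0, 31.4 and 35.4 CPM at 5 h, all below 0 h. The log2 changes were -0.46 (SE 0.11, edgeR, adjusted p = 0.00475) and -0.40 (SE 0.11, adjusted p = 0.00575). At 48 h it stood at 55.0, 56.3 and 56.2 CPM, above 0 h by 0.32 (SE 0.11, adjusted p = 0.0208). That rise was lost without 0 h library A or C or 48 h library B or C (adjusted p = 0.0533 to 0.0571), and with the length trend removed its sign turned (-0.19, adjusted p = 0.0833). The 2 h decrease came to -0.15 in that fit (adjusted p = 0.209), and the 5 h decrease kept its call. From 5 h to 48 h Dnmt3a rose by 0.72 (SE 0.11, edgeR, adjusted p = 2.48e-05), which came to 0.04 with the length trend removed (adjusted p = 0.688). In CGR8 Dnmt3a stood at 64.7, 67.3 and 67.4 CPM at 0 h and 73.6, 76.9 and 75.2 CPM at 5 h. These 5 h libraries lay above all at 0 h, but the change of 0.18 (SE 0.09) did not pass (adjusted p = 0.0904). It passed under 5 of 9 other settings, with DESeq2 at 0.22 (adjusted p = 0.0183) and with the length trend removed at 0.79 (adjusted p = 0.000301). From 5 h to 48 h Dnmt3a changed by -0.18 in CGR8, which was not called in the main fit. That decrease passed with DESeq2 (-0.19, adjusted p = 0.0328), voom (-0.20, 0.0230) and a mean of at least 5 CPM (-0.22, 0.0188). With the length trend removed it came to -0.96 (adjusted p = 4.28e-05). The changes at 5 h differed between the lines by 0.67 (SE 0.13, adjusted p = 0.00111), which held in 12 of 12 fits that left out a library and under 9 of 9 other settings. At 5 h, 13.3% of all genes were called for such a difference in either direction, and 2 of the 9 genes here, Dnmt3a and Uhrf1. The antisense gene Dnmt3aos, which shares 133 exon bases with Dnmt3a, had at most 1 count per library.

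Dnmt3l was called at no time in CGR8. It stood at 192, 240 and 199 CPM at 0 h, 281, 246 and 220 CPM at 5 h and 215, 324 and 300 CPM at 48 h, where library A overlapped the controls. The 48 h change was 0.41 (SE 0.15, edgeR, adjusted p = 0.0547). It passed under 7 of 9 other settings, at 0.51 with the length trend removed (adjusted p = 0.00452), and came to 0.57 without 48 h library A (adjusted p = 0.0105) and to 0.53 without 0 h library B (adjusted p = 0.0348). From 5 h to 48 h the change was 0.17, not called, and 0.45 with the length trend removed (adjusted p = 0.00603).

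**Figure D3:**
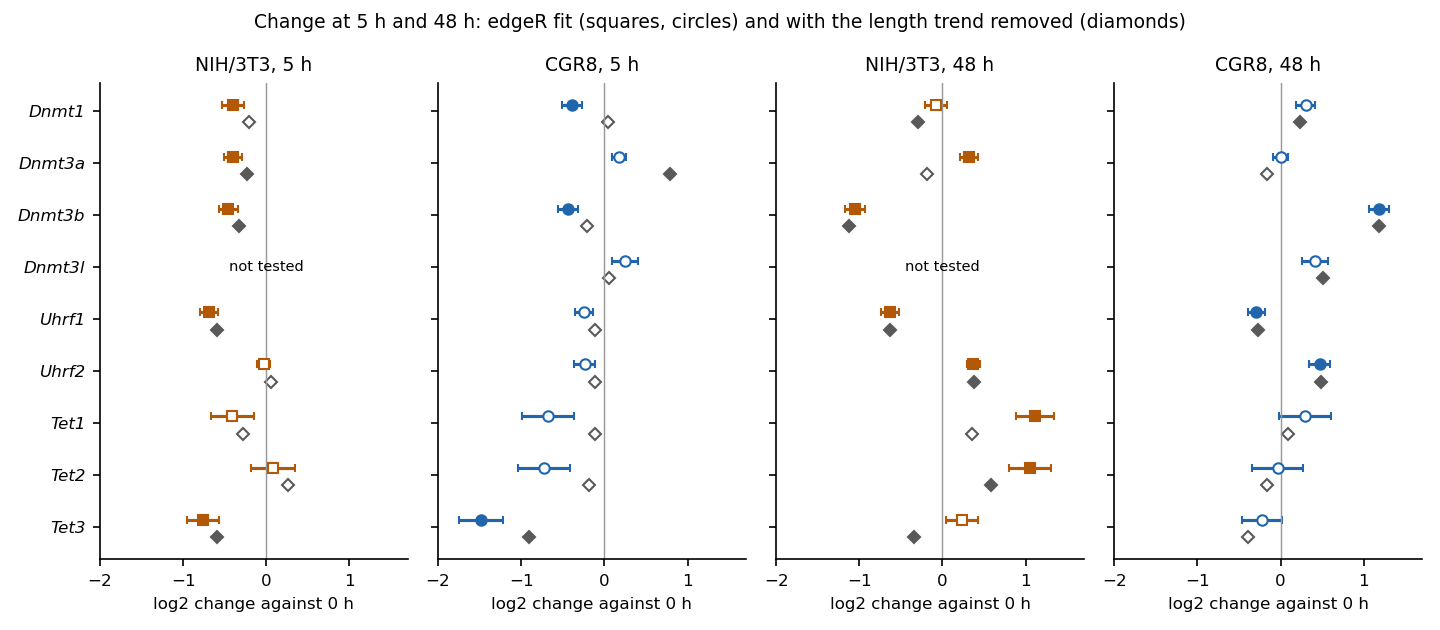
Log2 change against 0 h at 5 h (left pair) and 48 h (right pair), with squares (NIH/3T3) and circles (CGR8) for the edgeR fit, bars of 1 SE, and diamonds for the fit with the length trend removed. Filled symbols passed an adjusted p under 0.05. Dnmt3b at 48 h lies at -1.05 in NIH/3T3 and 1.18 in CGR8 with both diamonds close by, while the diamonds of Tet1 and Tet3 at 48 h in NIH/3T3 lie to the left of their squares.

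The erasers showed an early decrease of Tet3 in both lines and a later rise of Tet1 and Tet2 in NIH/3T3. Tet3, the main TET gene of the fibroblasts, went there from 54.0, 53.6 and 43.0 CPM at 0 h to 25.8, 35.3 and 27.4 CPM at 2 h and 28.8, 28.2 and 32.0 CPM at 5 h. No 2 h or 5 h library reached the lowest control, and the log2 change was -0.76 at both times (SE 0.19, edgeR, adjusted p = 0.00737 and 0.00384). In CGR8, where Tet3 is scarce, it went from 4.81, 3.03 and 3.77 CPM to 1.63, 2.05 and 1.46 CPM at 2 h and 0.754, 1.52 and 1.87 CPM at 5 h, on 17 to 58 counts per library at the later times. These changes were -1.18 (SE 0.25, adjusted p = 0.00574) and -1.48 (SE 0.26, adjusted p = 0.000261). All 4 decreases held in each of 6 fits that left out a library and, smaller, with the length trend removed, at -0.43 and -0.60 in NIH/3T3 and -0.78 and -0.91 in CGR8. By 48 h, Tet3 had risen from its 5 h level in NIH/3T3 (0.99, SE 0.19, adjusted p = 0.000286) and in CGR8 (1.25, SE 0.27, adjusted p = 0.000867). Against 0 h its 48 h change in NIH/3T3 was 0.23 (SE 0.19, adjusted p = 0.320), though the 48 h libraries (58.6 to 59.3 CPM) lay above all at 0 h. This change passed with voom (0.20, adjusted p = 0.0310) and with only the groups compared (0.24, adjusted p = 0.0215). With the length trend removed it turned to -0.34 and passed (adjusted p = 0.00267).

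Tet1 in NIH/3T3 was low throughout, at 2.17, 3.24 and 1.84 CPM at 0 h, 1.25, 1.28 and 1.28 CPM at 2 h and 4.62, 6.13 and 4.79 CPM at 48 h. It fell at 2 h (-0.91, SE 0.27, edgeR, adjusted p = 0.0176) and rose at 48 h (1.11, SE 0.23, adjusted p = 0.00077), both without overlap with 0 h. The 2 h call was lost without 0 h library B (adjusted p = 0.0962) or 2 h libraries B (0.0502) or C (0.0553). The 48 h rise came to 0.36 with the length trend removed (adjusted p = 0.0635). Tet2 went from 9.03, 10.5 and 7.10 CPM at 0 h to 17.5, 19.4 and 17.9 CPM at 48 h, a rise of 1.05 (SE 0.26, adjusted p = 0.00265) that came to 0.59 in that fit and kept its call. Both 48 h rises held in all 6 fits that left out a library. From 5 h to 48 h Tet2 rose by 0.98, a call that was lost with the length trend removed (0.33, adjusted p = 0.0990).

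In CGR8, Tet1 and Tet2 spread widely among replicates and passed the edgeR test against 0 h at no time. Tet1 at 5 h stood at 162, 390 and 506 CPM and Tet2 at 62.4, 99.5 and 156 CPM, in both cases lowest in library A, where the balance of long and short transcripts was also lowest (-1.57). At 0 h both were lowest in library B (415 and 116 CPM), where that balance was -0.30 against 0.13 and 0.15 in A and C. The 5 h changes were -0.68 for Tet1 (SE 0.32, edgeR, adjusted p = 0.0843) and -0.73 for Tet2 (SE 0.31, adjusted p = 0.0619), and they came to -0.11 and -0.18 with the length trend removed. Without 5 h library A they were -0.32 and -0.44, without 5 h library C -1.03 and -1.12 (adjusted p = 0.0142 and 0.00689), and without 0 h library B -0.84 and -0.94 (adjusted p = 0.0445 and 0.0195). They also passed without a filter on low counts (-0.70 and -0.75, adjusted p = 1.37e-06 and 3.73e-07) and with voom (-0.77 and -0.98, adjusted p = 0.00271 and 0.000173). From 5 h to 48 h Tet1 rose by 0.97 (SE 0.32, adjusted p = 0.016). Without 5 h library A (0.61, adjusted p = 0.0539), without 48 h library C (0.80, adjusted p = 0.0670) or with the length trend removed (0.20, adjusted p = 0.256) the rise did not pass.

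**Figure D4:**
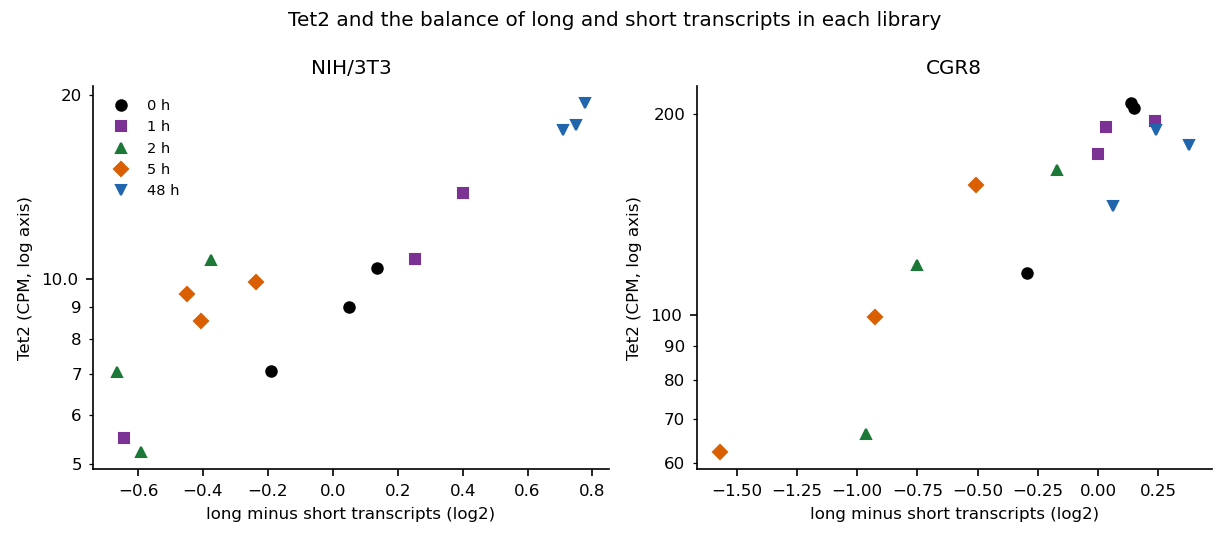
Tet2 in CPM (log axis) against the median log2 deviation of long minus short transcripts in each of 15 libraries per line, with time marked by shape and colour. Libraries with a higher balance of long transcripts tend to hold more Tet2: in CGR8 the lowest, 62.4 CPM, lies at -1.57 (5 h, A), and in NIH/3T3 the highest, 17.5 to 19.4 CPM, lie at 0.71 to 0.78 (48 h).

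Counted over the group, 5 of 8 tested genes were lower in NIH/3T3 at 2 h (18.9% of all genes were called lower) and 5 of 8 at 5 h (27.1%), with medians of -0.45 and -0.41 beside -0.01 over all genes at both times. At 48 h, 4 were higher (26.7% of all genes) and 2 lower (25.6%), and from 5 h to 48 h 6 were higher (34.1%) and 1 lower (31.4%). In CGR8, 2 of 9 were lower at 2 h (11% of all genes) and 3 at 5 h (27.2%), which is close to the share of all genes, with medians of -0.31 and -0.39 beside 0.01 and -0.01. At 48 h 2 were higher (12.2%) and 1 lower (15.6%), and from 5 h to 48 h 5 were higher (28.9%) and 0 lower (28.6%). The direction of these counts moved with the length trend removed: in NIH/3T3 at 48 h, 2 were then higher and 4 lower, and from 5 h to 48 h 3 higher and 1 lower. Of all genes, that fit called 54.3% at 48 h (3569 higher, 3862 lower) and 64.6% from 5 h to 48 h (4319 higher, 4523 lower). In CGR8 the counts were then 1 higher (Dnmt3a) and 1 lower (Tet3) at 5 h, 4 higher and 1 lower at 48 h, and 4 higher and 1 lower from 5 h to 48 h. Of all genes, 47.7% were called there at 5 h (3842 higher, 3602 lower), 33.3% at 48 h (2469 higher, 2716 lower) and 52.1% from 5 h to 48 h (3890 higher, 4230 lower). Comparisons with 0 h share their control libraries within a line. For the difference between the lines, 0 of 9 genes were called at 1 h (0.16% of all genes) and 0 at 2 h (2.02%), with 0 and 1 (Dnmt3a) at an unadjusted p under 0.05, 0 and 0 with DESeq2, and 0 and 1 with voom. That a change passed in 1 line and not in the other, as for Tet1 and Tet2 at 48 h, is therefore not shown to be a difference, which for these genes came to -0.84 (adjusted p = 0.192) and -1.10 (adjusted p = 0.0693). The Tet1 difference passed without a filter on low counts (-0.82, adjusted p = 0.00133) and with voom (-1.03, 0.0332). That of Tet2 passed without CGR8 0 h library B (-1.31, adjusted p = 0.0290) and under 4 of 9 other settings. Among them was the fit with the length trend removed (-0.82, adjusted p = 0.0235). The line difference of Dnmt1 at 48 h passed in that fit as well (0.49, adjusted p = 0.0041). Those of Dnmt1 (0.36 in the main fit), Uhrf1 (0.32) and Dnmt3a (-0.34) at 48 h passed with voom and with only the groups compared. Dnmt3a also passed with library size alone (-0.42, adjusted p = 0.0412) and with a mean of at least 5 CPM (-0.35, 0.0400).

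Partners of maintenance methylation were counted in CGR8 at 5 h, when Dnmt1 was lower. Counts and values of this and the other gene lists come from the main fit, without the length trend removed. Of 7 such genes, 5 rose and 1 fell (median 0.35, beside -0.01 over all genes), where 24.9% of all genes were called higher and 27.2% lower. The largest rise was that of Pclaf (1.31), the PCNA-binding factor that helps bring DNMT1 to replicated DNA, with Pcna itself at 0.75 and the deubiquitinase Usp7 lower at -0.54. At 5 h in NIH/3T3, when Dnmt1 was lower there too, the partners summed to 1237 to 1249 CPM, beside 1066 to 1161 CPM at 0 h. Their largest called change at that time was a rise of Cdca7 (0.64). In CGR8 at 48 h they summed to 2161 to 2320 CPM, beside 1859 to 2067 CPM at 0 h. In NIH/3T3 at 48 h the sum was 955 to 964 CPM, and 3 of 7 fell and 0 rose (median -0.24), with Pcna at -1.25. Of all genes, 25.6% were called lower there and 26.7% higher. S-phase genes were followed beside them, since maintenance methylation is tied to replication. In NIH/3T3 at 48 h, 18 of 21 fell and 0 rose (median -0.72, against the same shares of all genes), beside the decrease of Uhrf1, and their summed level went from 4340 to 4396 CPM at 0 h to 3052 to 3076 CPM. At 5 h in that line, when Uhrf1 was already lower, 6 rose (24% of all genes) and 4 fell (27.1%), and the sum ran from 4356 to 4422 CPM. At 2 h there, 8 rose (16.1%) and 0 fell (18.9%). In CGR8 at 5 h, 13 of 21 rose (24.9%) and 1 fell (27.2%), with a median of 0.44. The part of the cell cycle in the Uhrf1 values was not tested.

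Among genes that regulate TET and DNMT proteins or their recruitment, 7 of 10 tested in NIH/3T3 fell at 2 h (18.9% of all genes) and 5 at 5 h (27.1%), and 0 rose at either time (medians -0.43 and -0.33, beside -0.01 over all genes), with Kdm2b, which binds unmethylated CpG, at -0.63 and -0.75. In CGR8 at 2 h, 2 of 12 fell (11% of all genes) and 1 rose (8.97%), with a median of -0.25. At 5 h 7 of 12 fell (27.2%, median -0.37) and 1 rose (24.9%), Dppa3 (1.41), whose product keeps UHRF1 from chromatin. At 48 h Ogt, a glycosyltransferase partner of TET proteins, rose in both lines, by 1.02 in NIH/3T3 and 0.77 in CGR8. At that time 5 of 10 regulators rose (26.7%) and 1 fell (25.6%) in NIH/3T3, and 4 of 12 rose (12.2%) and 1 fell (15.6%) in CGR8. The median deviation of genes with transcripts of at least 8 kb was -0.39 to -0.18 in NIH/3T3 at 2 h and 0.51 to 0.59 at 48 h. That of genes under 2 kb was 0.27 to 0.56 in CGR8 at 5 h. What the length trend contributes to the counts of the lists was not tested.

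Genes most like each member across the 15 libraries of a line were found by Pearson's r of log2 CPM, among 8461 or 8462 genes in NIH/3T3 and 8147 or 8148 in CGR8 with at least 10 CPM, as a description without a test, since all points share libraries and the length trend. For Dnmt3b these were Nup133 (r = 0.976) and Tead4 (0.970) in NIH/3T3, and Hnrnpa3 (0.985) and Gtf2i (0.984) in CGR8. For Uhrf1 in NIH/3T3 they were Srebf2 (0.979) and Nploc4 (0.973), and for Tet3 there Lrrk2 (0.988) and Srrm2 (0.986). Among the 9 genes themselves, Uhrf1 and Dnmt3b varied together in NIH/3T3 (r = 0.771, n = 15), whereas in CGR8 r was -0.27 (n = 15). Tet1 and Tet2 varied together in both lines (r = 0.873 in NIH/3T3 and 0.931 in CGR8, n = 15 each).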

How the data were processed

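RNA was measured by RNA-seq in 30 libraries of NIH/3T3 and CGR8 cells. The kit named in the labels' protocols makes strand-marking mRNA libraries. The deposited values are counts of reads for each gene, not normalized, and every column was used. STAR, DESeq2 and GRCm39 are named in the submitters' processing notes, without versions or roles. The counting tool, its use of strand and the annotation release are not given in the sources used here. Of 57186 identifiers, 90.7% had a symbol in the reference table (GENCODE M21, on GRCm38, also used for transcript lengths). No coordinates were taken from the count table.

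Counts were fitted in R 4.3.3 with edgeR 4.0.16: 1 model per line (15 libraries, 1 coefficient per time), and 1 model of all 30 libraries for differences between lines. Genes were kept by filterByExpr (minimum count 10, minimum total 15), scaled by TMM factors and tested by the quasi-likelihood F test, with Benjamini-Hochberg adjustment over all genes tested and calls at an adjusted p under 0.05. For CPM, TMM factors came from the line a library belongs to, and for differences between lines from all 30 libraries. With totals of 18.2 M to 30.5 M counts, only genes of a few CPM are limited by counting error. Other settings were RLE factors, scaling by library size, DESeq2 1.42.0, all genes without a filter, genes averaging 5 CPM or more, fits of only the compared groups, a block for the replicate letter, and fits that each left out 1 library. Limma 3.58.1 voom with sample weights and the removal of a per-library length trend (lowess) were added after seeing the data. The tests were checked on simulated counts, which held no length trend, so that check does not cover its effect on the calls. The 9 genes and 12 further gene lists were chosen with earlier results of these data known. From each list, the gene with the largest called change per line and time, with at least 1 CPM, could be named. Otx2, Foxd3, Pcna in CGR8 and Usp7 fall outside that rule and were named after their values were seen, as were Fgf5, Thy1, Postn, Pou5f1, Col1a1, Klf4, Sox2, Fn1 and Vim.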

Additional observations from a re-analysis of the deposited data

Results flagged for a closer look

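In 3 cases the change from 0 h differed between the lines by a test of the difference itself (CGR8 minus NIH/3T3, in 1 edgeR fit of all libraries). Dnmt3b at 48 h differed by 2.21 on the log2 scale, with 10.5 ± 0.360 CPM (SD, n = 3) in NIH/3T3 and 562 ± 89.5 CPM in CGR8 at that time. For Dnmt3a at 5 h the difference was 0.67. For Uhrf1 at 5 h it was 0.54, the one of the 3 that was lost under other scalings, as given above.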

How the results depend on the processing

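With the length trend removed, 4 changes that were called in the reported fit or in that one turned in sign: Dnmt3a (-0.19) and Tet3 (-0.34) in NIH/3T3 at 48 h, Dnmt1 there from 5 h to 48 h (-0.087), and Dnmt1 in CGR8 at 5 h (0.047). Another 10, called in neither fit, turned too. In that fit 4 genes were called in NIH/3T3 from 5 h to 48 h (7 in the reported fit), 1 in CGR8 at 2 h (2 reported) and 5 at 48 h (3 reported), and 3 for the line difference at 48 h (1 reported). The shares of all genes it called in these comparisons were, in that order, 64.6%, 17.0%, 33.3% and 24.9%. Voom with sample weights called 1 gene in NIH/3T3 at 1 h, 4, 7 and 5 in CGR8 at 2, 5 and 48 h, and 1 and 6 for the line difference at 2 h and 48 h. Of all genes, voom called 20.7% in NIH/3T3 at 1 h and 28.9%, 63.1% and 44.3% in CGR8 at 2, 5 and 48 h. For the line difference it called 4.04% at 2 h and 43.4% at 48 h. DESeq2 called 5 in CGR8 at 48 h. Library size alone called 5 in CGR8 at 5 h, 1 for the line difference at 5 h and 2 at 48 h, and RLE factors 1 at 5 h. Without a filter 4 and 5 were called in CGR8 at 2 h and 5 h and 3 for the line difference at 48 h. With a mean of at least 5 CPM the counts were 1 in CGR8 at 2 h and 2 for the line difference at 48 h, and with only the groups compared 1 and 5. Tet3, with group means of 1.38 to 3.87 CPM in CGR8, lies under 5 CPM and was not tested in CGR8 with that filter. The cause of the other shifts was not tested.

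Leaving out 1 library gave 3 (without 2 h C) to 6 (without 2 h A) genes in NIH/3T3 at 2 h, 1 to 2 in CGR8 at 2 h, 2 to 5 (without 0 h B or 5 h C) at 5 h and 1 (without 48 h C) to 3 at 48 h, and 1 to 2 for the line difference at 5 h and 48 h. The 48 h changes of Dnmt3b kept direction and call in every fit run, at -1.08 to -0.99 in NIH/3T3 and 1.11 to 1.31 in CGR8 over these fits.

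Counts over all genes moved as well. At 2 h in CGR8, 3174 genes were called, 965 to 4609 under other settings and 1062 to 3924 with a library left out. At 1 h the 102 calls in NIH/3T3 became 27 to 2881 and the 43 in CGR8 37 to 1044. At 5 h and 48 h in CGR8 the 8302 and 4429 calls became 6153 to 10048 and 3047 to 7063 under other settings. With a library left out they became 7128 to 8273 and 3159 to 3764. In NIH/3T3 at 2 h, 4878 calls became 3050 to 5599 with a library left out. For the line difference at 5 h and 48 h, 2329 and 3849 calls became 2055 to 6373 and 3416 to 7622 under other settings. Of the genes called for a line difference at 5 h, 61.6% had a positive value (CGR8 change minus NIH/3T3 change). That share was 31.5% with library size alone, 45.9% with RLE factors and 41.5% with the length trend removed. The replicate block ended the calls of Dnmt1 in NIH/3T3 from 5 h to 48 h (0.31, adjusted p = 0.0533) and of Uhrf1 in CGR8 at 48 h (-0.29, adjusted p = 0.0554) and no other. Deviations from the group means correlated between libraries of the same letter at a mean of 0.01 in NIH/3T3 (-0.30 to 0.33) and 0.02 in CGR8 (-0.58 to 0.42). For different letters the means were -0.004 (-0.39 to 0.37) and -0.008 (-0.54 to 0.66). These deviations also hold the length balance of each library, so they cannot decide whether the letters pair the samples.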

Other observations

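Among readers of methylated CpG, the zinc finger gene Zbtb4 rose by 1.61 on the log2 scale in NIH/3T3 at 48 h. Of 9 readers, 4 rose and 1 fell in NIH/3T3 at 48 h, where 26.7% of all genes were called higher and 25.6% lower. In CGR8 1 rose (Zfp57, 0.61) and 0 fell, beside 12.2% and 15.6%. Whether these counts differ between the lines was not tested.

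Among genes of the supply of methyl groups, the mitochondrial folate enzyme gene Mthfd2 changed by -1.31 at 5 h and -1.27 at 48 h in NIH/3T3 and by -1.41 and -1.32 in CGR8. Of 13 such genes, 6 fell (27.1% of all genes) and 0 rose (24%) in NIH/3T3 at 5 h, and 8 fell (27.2%) and 1 rose (24.9%) in CGR8. At 48 h 6 fell and 1 rose in NIH/3T3 (median 0.07) and 2 fell and 0 rose in CGR8 (median -0.15), beside the shares of all genes given for the readers. Among 10 base excision repair genes, Apex1 moved in opposite directions, at -1.23 in NIH/3T3 at 48 h and 0.73 in CGR8 at 5 h, times that differ.

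Of 18 germline genes known to be silenced by promoter methylation, 15 passed the filter on low counts in CGR8. At 5 h 5 rose (24.9% of all genes were called higher) and 0 fell (27.2% were called lower). Taf7l rose most, by 1.85, from a mean of 0.907 to 3.28 CPM. At 48 h 4 rose (12.2%) and 2 fell (15.6%), with Sycp3 at -1.89, from 8.27 to 2.22 CPM. In NIH/3T3, 5 passed, and the largest called change among them was that of Tex19.1 at each of 3 times. It was higher at 2 h (0.52, edgeR, adjusted p = 0.000829) and lower at 5 h (-0.84) and 48 h (-0.83).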
